A study of Mus musculus with 3 samples.

Results

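The prostaglandin genes described here are 10 genes of prostaglandin synthesis, breakdown and reception, taken by gene name from the deposited expression tables. They are the cyclooxygenase genes Ptgs1 and Ptgs2, the terminal synthase genes Ptges, Ptgis and Ptgds, the dehydrogenase gene Hpgd and the prostaglandin E2 receptor genes Ptger1, Ptger2, Ptger3 and Ptger4. All 10 were found among the 22077 gene names analysed, each on 1 gene model with a valid status in every library. Gene expression was measured by RNA sequencing of poly(A) RNA in 3 libraries, with 1 library per group, all from mice of the FVB background. LCC (lung-colonizing cells) were mammary cells of GFP donors, or mammary cells of FVB mice stained with the dye DDAO, that were injected into a vein of FVB recipients. Each experiment pooled cells of 8 female donors and gave them to 4 recipients, in 2 injections of 2500000 cells each. Injected cells were sorted by that label from dissociated lungs 1 day later, with no EpCAM or CD29 gate named, and pooled from 15 experiments, 42 lungs and 455880 cells. E-Int29-Hi was a mammary cell fraction with an intermediate EpCAM and a high CD29 signal in the sorter, 3 samples combined, and MG was mammary gland tissue that had not been dissociated, also 3 samples combined. The labels name no other treatment, and the ages of the mice are not given in the sources used here.

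Prostaglandins are lipid signals made on demand from arachidonic acid, which phospholipases release from membranes. The cyclooxygenases turn it into prostaglandin H2, and terminal synthases convert that product into prostaglandin E2, prostacyclin or prostaglandin D2. Ptgs1 (COX-1) is usually made at a steady level, whereas Ptgs2 (COX-2) is an inducible gene that responds to cytokines and wounding. In mammary tissue, COX-2 and prostaglandin E2 are best known for their part in inflammation and in tumour growth.

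Values are FPKM, sequenced fragments corrected for gene length and library size, so levels of different genes can be set side by side per length. With 1 library per group there was no replicate check and no test, and each value describes a pool of cells. Differences between libraries are given as log2 of the ratio of FPKM + 1, where the added 1 shrinks the change of low genes. A gene is called higher or lower when it was at least 4-fold apart on that scale and either library of the pair had reached 1 FPKM. In bulk RNA, fewer cells of a type and less RNA per cell cannot be told apart.

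FPKM values summed to between 291133 and 377918 per library, and total read numbers are not given in the sources used here. Markers of cell types gave a mixed picture of the sorts. All 8 basal epithelial markers reached 1 FPKM in E-Int29-Hi, with a summed level of 7315 FPKM against 653 in LCC and 460.4 in MG. Against MG, 5 of the 8 lay lower in LCC by any amount (median log2 difference -0.94), and Myh11 and Oxtr were called. Krt14, Krt5 and Krt17 lay higher. Of 8 luminal markers, 5 reached 1 FPKM in LCC, and the luminal sum was 4670 FPKM in LCC, 2466 in MG and 326 in E-Int29-Hi. Against MG, 4 of these 8 lay higher in LCC by any amount and 4 lower. Elf5, Esr1 and Pgr were called lower in LCC, at 0.964, 0.734 and 0.179 FPKM there and 15.6, 10.6 and 43.9 FPKM in MG. In this pair 2.63% of all genes were called lower. Genes of lung epithelium summed to 643 FPKM in LCC, 3.14 in MG and 10.1 in E-Int29-Hi, mostly from Scgb1a1. The 6 fat cell markers summed to 0.532 FPKM in LCC, 23.6 in MG and 1.92 in E-Int29-Hi, with Car3 at 18.9 and Adipoq at 1.12 FPKM in MG.

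In LCC the 2 cyclooxygenase genes stood apart in opposite directions, so the sequences just before their annotated starts are shown for both. They were taken from RefSeq on build GRCm38.p6, plus strand, in a table that held 8 of the 10 genes and 32851 promoters. Capitals mark matches, on either strand, to any of 9 short motifs. They are the TATA box TATAAA, the cyclic AMP response element TGACGTCA with its half-site TGACG (any full element also holds the half-site), the AP-1 site TGANTCA, a pair of NF-kappaB motifs, the E-box CACGTG, the C/EBP core TTGCNNAA and the GC box GGGCGG. The second Ptgs2 stretch is a short piece just after the annotated start, printed because matches of CACGTG and TGACG overlap there. It was chosen after the sequence was seen. Whether the annotated starts were the ones used in these cells was not tested, so before and after refer to the annotation only.
Ptgs1, chr2:36230176-36230425: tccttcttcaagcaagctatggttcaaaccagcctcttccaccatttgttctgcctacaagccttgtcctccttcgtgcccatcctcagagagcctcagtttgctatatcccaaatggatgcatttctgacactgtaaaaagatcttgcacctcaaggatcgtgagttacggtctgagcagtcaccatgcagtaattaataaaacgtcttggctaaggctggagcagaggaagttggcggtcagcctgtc
Ptgs2, chr1:150099781-150100030: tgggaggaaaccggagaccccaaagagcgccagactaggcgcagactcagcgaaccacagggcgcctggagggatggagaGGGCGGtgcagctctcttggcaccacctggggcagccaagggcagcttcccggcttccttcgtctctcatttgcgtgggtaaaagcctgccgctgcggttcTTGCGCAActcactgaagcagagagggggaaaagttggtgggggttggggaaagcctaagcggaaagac
Ptgs2, chr1:150100037-150100060: accactaCGTCACGTGgagtccgc

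In the 250 bases before its start, Ptgs2 held TTGCNNAA once and GGGCGG once. The same window of Ptgs1 held a match to 0 of the 9 motifs. Across all promoters of the table, 9.56% held TTGCNNAA and 32.7% held GGGCGG. In the 50 bases after the start, 1.08% of the promoters held CACGTG and 3.49% held TGACG. A match describes the letters only, and the GC share of the 250 bases was 48.0% for Ptgs1 and 61.6% for Ptgs2.

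Ptgs2, the inducible cyclooxygenase, stood at 556 FPKM in LCC, 72.6 in MG and 33.2 in E-Int29-Hi. LCC was the high library by a wide margin, and E-Int29-Hi the low one. The level in LCC was 16.8-fold that of E-Int29-Hi and 7.66-fold that of MG, with log2 differences of 4.03 and 2.92. E-Int29-Hi lay 1.11 below MG on the log2 scale (-1.11), which is less than 4-fold. Ptgs2 ranked 85 of 22077 gene names by level in LCC, 647 in MG and 1767 in E-Int29-Hi.

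Ptgs1, the constitutive cyclooxygenase, was lowest where Ptgs2 was highest. It stood at 0.607 FPKM in LCC, 7.78 in MG and 5.26 in E-Int29-Hi. LCC was the low library, and E-Int29-Hi and MG lay close together, with a log2 difference of -0.49. Ptgs1 was called lower in LCC than in MG (log2 difference -2.45, 12.8-fold lower level). Against E-Int29-Hi its log2 difference of -1.96 lay just short of 4-fold, and with libraries scaled by their median ratios it was -2.14 and passed. When 5 FPKM was added in place of 1, the differences of LCC were -1.19 from MG and -0.87 from E-Int29-Hi, so the call against MG was lost.

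Both cyclooxygenases make the same product, so their balance can be read within each library, where scaling between libraries has no effect. The ratio of Ptgs2 to Ptgs1 was 917 in LCC, 9.34 in MG and 6.31 in E-Int29-Hi. Ptgs2 made up 99.9% of the summed cyclooxygenase level in LCC, 90.3% in MG and 86.3% in E-Int29-Hi. Ptgs2 was thus the more abundant cyclooxygenase in all 3 libraries, and the LCC ratio rests on a Ptgs1 value under 1 FPKM.

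**Figure D1:**
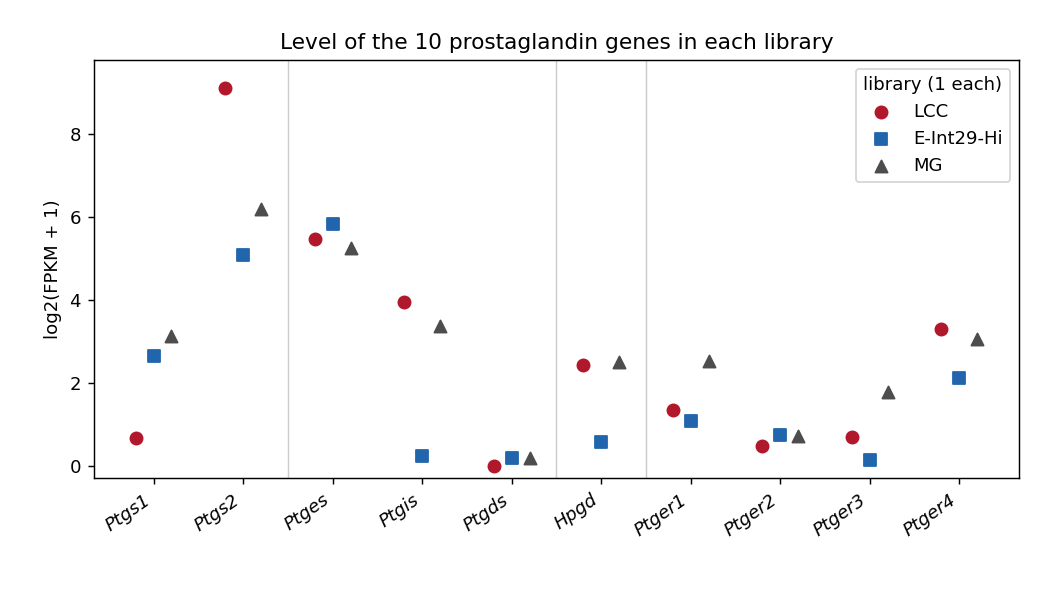
Level of each of the 10 genes as log2(FPKM + 1), 1 point per library, with no error bars because each group is 1 library. Grey lines separate cyclooxygenases, terminal synthases, the dehydrogenase and the receptors. Ptgs2 is highest in LCC (556 FPKM) while Ptgs1 is lowest there (0.607 FPKM), and Ptges lies between 37.1 and 56.1 FPKM in all 3 libraries.

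The terminal synthases did not share one pattern. Ptges, the inducible prostaglandin E synthase that works with COX-2, stood at 43.6 FPKM in LCC, 37.1 in MG and 56.1 in E-Int29-Hi. Its differences were small, with log2 values of -0.36 for LCC against E-Int29-Hi, 0.23 for LCC against MG and 0.59 for E-Int29-Hi against MG. Given as TPM, the difference of LCC from MG was -0.05. Its highest level in FPKM was 1.51-fold its lowest, and it was the most abundant of the 10 genes in E-Int29-Hi. The ratio of Ptgs2 to Ptges was 12.8 in LCC, 1.96 in MG and 0.591 in E-Int29-Hi.

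Ptgis, prostacyclin synthase, stood at 14.5 FPKM in LCC, 9.42 in MG and 0.188 in E-Int29-Hi. The low library was E-Int29-Hi, and LCC and MG were within 1.54-fold of each other. Ptgis was called higher in LCC than in E-Int29-Hi (log2 difference 3.70) and lower in E-Int29-Hi relative to MG (-3.13). When 5 FPKM was added in place of 1, these differences were 1.91 and -1.47, under 4-fold. The fibroblast markers had the same low library, with 7 of 7 called lower in E-Int29-Hi relative to MG, beside 3.97% of all genes. Other lists shared it, with 6 of 8 luminal, 4 of 6 endothelial and 2 of 6 pericyte markers called lower in that pair. Of the basal markers, 6 of 8 were called higher. Fibroblast markers summed to 1349 FPKM in LCC, 2886 in MG and 133 in E-Int29-Hi. Against MG, 7 of 7 lay lower in LCC by any amount, whereas Ptgis lay higher. The part of any of these cell types in the Ptgis values was not tested. Ptgir, the receptor of prostacyclin and no member of the 10, also had its low value in E-Int29-Hi, at 5.73 FPKM in LCC, 4.45 in MG and 0.695 in E-Int29-Hi.

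Ptgds, the lipocalin-type prostaglandin D synthase, was listed at 0 in LCC and stood at 0.135 FPKM in MG and 0.141 in E-Int29-Hi. It was below 1 FPKM in every library and entered no comparison. Hpgds, the other prostaglandin D synthase and no member of the 10, was also low, at 0.860, 1.62 and 0.481 FPKM in LCC, MG and E-Int29-Hi.

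Hpgd, the dehydrogenase that inactivates prostaglandin E2, stood at 4.43 FPKM in LCC, 4.72 in MG and 0.494 in E-Int29-Hi. LCC and MG were nearly equal (log2 difference -0.08), and E-Int29-Hi was the low library. The log2 difference was 1.86 for LCC against E-Int29-Hi and -1.94 for E-Int29-Hi against MG, both just under 4-fold on this scale, with a level 8.98-fold and 9.57-fold lower in E-Int29-Hi. Both passed when 0.1 FPKM was added in place of 1, at 2.93 and -3.02. The ratio of Ptges to Hpgd, a synthase over the enzyme that breaks its product down, was 9.85 in LCC, 7.85 in MG and 114 in E-Int29-Hi, and the high ratio of E-Int29-Hi rests on an Hpgd value under 1 FPKM.

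**Figure D2:**
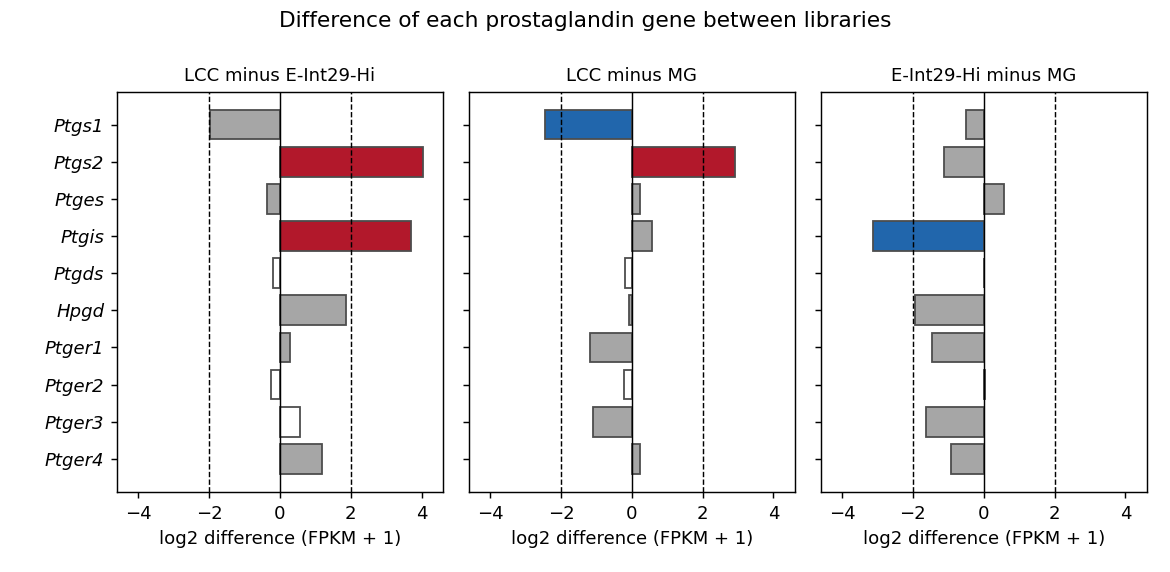
Log2 difference of FPKM + 1 for each gene in the 3 pairs of libraries. Dashed lines mark 4-fold; red bars were called higher, blue bars lower, grey bars were tested and not called, and white bars stood under 1 FPKM in both libraries. Ptgs2 is red in both panels with LCC (4.03 and 2.92), and Ptgis is blue for E-Int29-Hi minus MG (-3.13).

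The receptor genes were low compared with Ptgs2 and Ptges. The summed level of the 4 prostaglandin E2 receptor genes was 11.4 FPKM in LCC, 15.2 in MG and 5.26 in E-Int29-Hi. None of the 4 was called in any pair, but Ptger2 was not tested in any, and Ptger3 not for LCC against E-Int29-Hi. Over all genes, between 1.33% and 4.64% were called per pair and direction, so the lack of a call among so few genes says little. Ptger4, a receptor that couples to cyclic AMP production, was the most abundant in each library, at 8.85 FPKM in LCC, 7.35 in MG and 3.36 in E-Int29-Hi. It held 77.4%, 48.3% and 63.9% of the summed receptor level in LCC, MG and E-Int29-Hi. Its highest log2 difference was 1.17, for LCC against E-Int29-Hi. In GENCODE M21, exons of 5 of the 10 members overlap exons of other genes, and the labels name no step that keeps strand. Ptger4 shares 1015 exon bases with the pseudogene Gm15937 and 82 with Ttc33 on the other strand, so its reads can be mixed with theirs. The same limit holds for the other members with such an overlap, which are not named here.

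Ptger2, the other receptor that couples to cyclic AMP, stood at 0.408 FPKM in LCC, 0.655 in MG and 0.687 in E-Int29-Hi, under 1 FPKM throughout. Its level in E-Int29-Hi was 1.05 times that in MG. That ratio is close to 1.048, the commonest ratio between these libraries among genes under 0.1 FPKM (116 of 1184), which is the ratio that equal numbers of fragments would give. The same holds for Ptgds, also at a ratio of 1.05.

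Ptger3, a receptor that lowers cyclic AMP, stood at 0.622 FPKM in LCC, 2.44 in MG and 0.102 in E-Int29-Hi. MG was the high library, and E-Int29-Hi the low one, with a log2 difference of -1.64 between them and of -1.08 for LCC against MG. When 0.1 FPKM was added in place of 1, the difference of E-Int29-Hi from MG was -3.65 and passed. Ptger1, a receptor that signals through calcium, stood at 1.55 FPKM in LCC, 4.76 in MG and 1.11 in E-Int29-Hi, with log2 differences from MG of -1.17 and -1.45. Its difference of E-Int29-Hi from MG passed in the same way, at -2.01.

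Of the 7 members tested for LCC against E-Int29-Hi, 2 were called higher (Ptgs2 and Ptgis) and 0 lower, where 4.64% of 12147 genes were called higher and 4.35% lower. For LCC against MG, 1 of 8 was called higher (Ptgs2) and 1 lower (Ptgs1), against 1.33% and 2.63% of 12443 genes. For E-Int29-Hi against MG, 0 of 8 were called higher and 1 lower (Ptgis), against 2.6% and 3.97% of 12430 genes. The members left out stood under 1 FPKM in both libraries. The median log2 difference of the members tested was 1.17 for LCC against E-Int29-Hi, 0.08 for LCC against MG (-0.35 as TPM) and -1.28 for E-Int29-Hi against MG. Over all genes tested the medians were 0.26, 0.01 and -0.23. Relative to the median gene, Ptgs2 in LCC lay 3.77 above E-Int29-Hi and 2.91 above MG on the log2 scale. The comparisons share libraries and are not independent of each other.

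**Figure D3:**
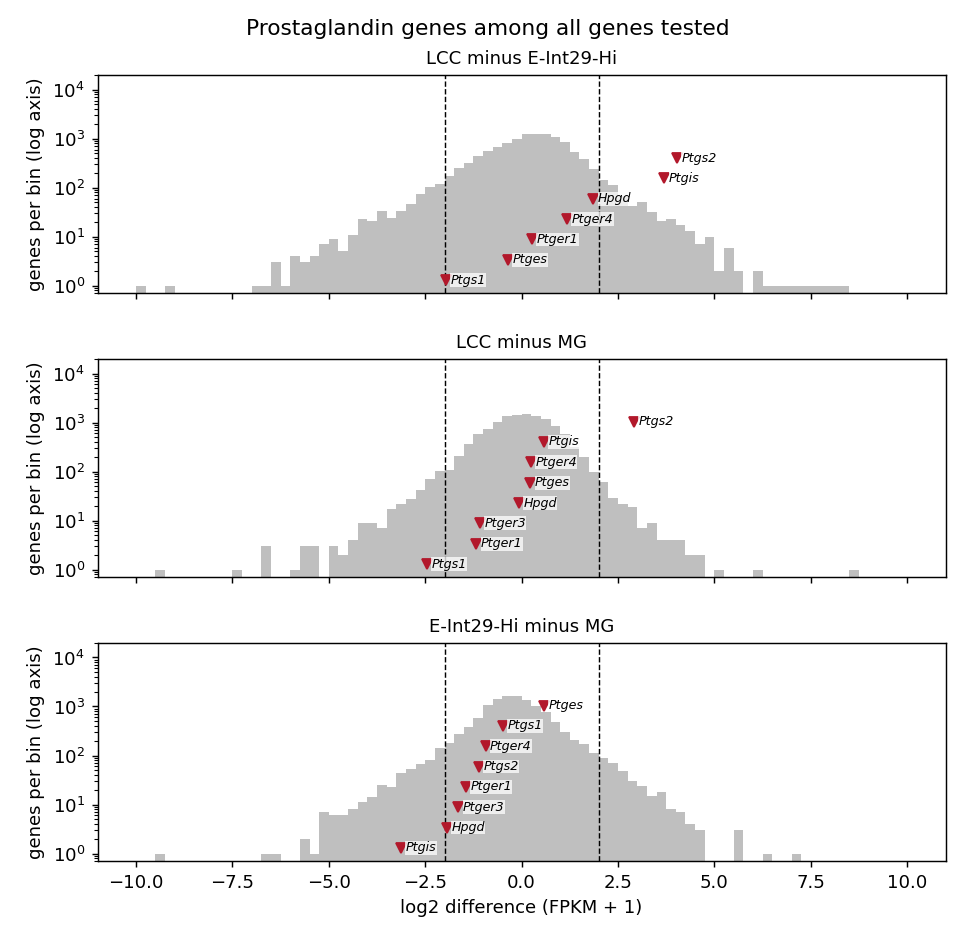
Distribution of log2 differences over all genes tested in each pair of libraries (grey, number of genes per bin on a log axis), with the prostaglandin genes tested marked by red triangles; the height of a triangle has no meaning. Dashed lines mark 4-fold. Ptgs2 lies far to the right in both pairs with LCC (4.03 and 2.92), while Ptges lies between -0.36 and 0.59 in all 3 pairs.

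Of 21 other genes of prostanoid synthesis, transport and reception, 1 of 14 tested was called higher in LCC than in E-Int29-Hi and 0 lower, where 4.64% and 4.35% of all genes were. For LCC against MG it was 1 of 15 higher and 0 lower, beside 1.33% and 2.63% of all genes, and for E-Int29-Hi against MG 0 of 14 in either direction. The called gene was the same in both pairs with LCC, Pla2g4a, which encodes the cytosolic phospholipase A2 that releases arachidonic acid. It stood at 25.6 FPKM in LCC, 4.62 in MG and 5.15 in E-Int29-Hi, with log2 differences of 2.12 from E-Int29-Hi and 2.25 from MG. Scaled by median ratios they were 1.87 and 2.16, so the first of these calls was lost, and when 5 FPKM was added in place of 1 they were 1.59 and 1.67 and both were lost. The first enzyme of the route and the inducible cyclooxygenase were thus both highest in LCC, whereas Ptges was not.

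The 4 most abundant genes of this list were Slco2a1, Ptges3, Ptgfrn and Pla2g4a. Slco2a1, the transporter that takes prostaglandins up, stood at 62.9 FPKM in LCC, 82.9 in MG and 158 in E-Int29-Hi. Its highest value was in E-Int29-Hi, less than 4-fold above the others (log2 difference -1.32 for LCC against E-Int29-Hi). Ptges3, a co-chaperone also known as cytosolic prostaglandin E synthase, stood at 85.4, 58.5 and 72.7 FPKM in LCC, MG and E-Int29-Hi. Ptgfrn, a membrane protein that inhibits the prostaglandin F receptor, stood at 41.2, 23.7 and 27.0 FPKM in that order. By level, Ptges made up 32.0%, 36.9% and 40.9% of the summed prostaglandin E synthases Ptges, Ptges2 and Ptges3.

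**Figure D4:**
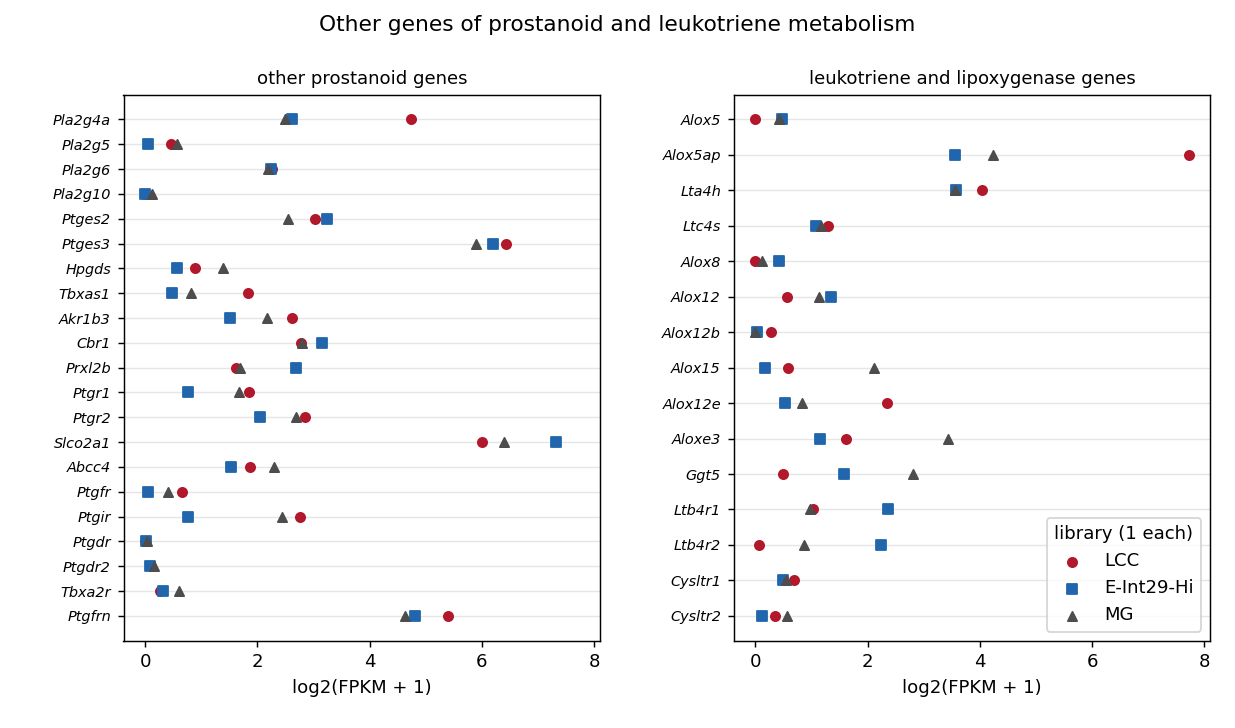
Level as log2(FPKM + 1) of 21 other prostanoid genes (left) and 15 leukotriene and lipoxygenase genes (right), 1 point per library. Pla2g4a and Alox5ap stand apart in LCC, at 25.6 and 210.0 FPKM.

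Arachidonic acid also feeds the leukotriene route. Of 16 genes of that route, 15 had values. For LCC against E-Int29-Hi, 1 of 9 tested was called higher (Alox5ap) and 1 lower (Ltb4r2). For LCC against MG, 1 of 9 was higher (Alox5ap) and 1 lower (Ggt5), and for E-Int29-Hi against MG, 0 of 9 were higher and 1 was lower (Aloxe3). Of all genes, 4.64% were called higher and 4.35% lower for LCC against E-Int29-Hi. For LCC against MG they were 1.33% and 2.63%, and for E-Int29-Hi against MG 2.6% and 3.97%. Alox5ap, which encodes the protein that presents arachidonic acid to 5-lipoxygenase, stood at 210.0 FPKM in LCC, 17.8 in MG and 10.8 in E-Int29-Hi. Lta4h, which encodes the enzyme that makes leukotriene B4, was next by level, at 15.5, 10.7 and 11.0 FPKM in LCC, MG and E-Int29-Hi. The partner of Alox5ap, Alox5, the 5-lipoxygenase gene, was listed at 0 in LCC and stood at 0.333 FPKM in MG and 0.394 in E-Int29-Hi. Ltb4r2, a leukotriene B4 receptor, stood at 0.0465, 0.817 and 3.74 FPKM in LCC, MG and E-Int29-Hi. Ggt5, which processes leukotriene C4, stood at 0.406, 6.02 and 1.99 FPKM, and Aloxe3, an epidermal lipoxygenase, at 2.07, 9.76 and 1.23 FPKM in that order.

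Upstream of Ptgs2, a list of known inducers and their mediators had 12 of 13 genes with values. For LCC against E-Int29-Hi, 4 of 12 were called higher and 0 lower, and all 4 were cytokine genes (Il1a, Il1b, Tnf and Il6). Il6, the most abundant of the list, stood at 613 FPKM in LCC, 182 in MG and 43.1 in E-Int29-Hi. Il1b, a cytokine that induces Ptgs2, stood at 59.6 FPKM in LCC, 18.1 in MG and 1.19 in E-Int29-Hi. Tnf stood at 63.5, 18.9 and 6.32 FPKM and Il1a at 17.0, 4.95 and 0.943 FPKM in that order. For LCC against MG, 0 of 12 were called in either direction, with log2 differences of these 4 genes between 1.60 and 1.74. For E-Int29-Hi against MG, 0 of 12 were higher and 4 lower (Il1b, Il6, Tlr4 and Il1r1), of which Il6 missed 4-fold with median ratio scaling (-1.87) and with 5 FPKM added (-1.96). Over all genes, 4.64% were called higher and 4.35% lower for LCC against E-Int29-Hi. The shares were 1.33% and 2.63% for LCC against MG, and 2.6% and 3.97% for E-Int29-Hi against MG. Il1r1, a receptor for both interleukin 1 cytokines, was 32.6, 58.4 and 7.71 FPKM in LCC, MG and E-Int29-Hi, and Tlr4, the endotoxin receptor, 2.88, 7.68 and 0.881 FPKM. The transcription factor genes Nfkb1 and Rela were near level, at 187, 181 and 133 FPKM and at 64.6, 61.1 and 78.8 FPKM. Cebpb, another factor that acts on Ptgs2, was highest in E-Int29-Hi, at 115, 115 and 341 FPKM in LCC, MG and E-Int29-Hi.

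The receptors Ptger2 and Ptger4 couple to cyclic AMP, and 13 genes known to respond to cyclic AMP were all tested. Their levels did not follow the pattern of Ptgs2. Whether these receptors acted on them in any library was not tested. For LCC against E-Int29-Hi, 1 was called higher (Areg) and 1 lower (Pde4d), and 11 of 13 lay below E-Int29-Hi by any amount, with a median of -1.29. For LCC against MG, 0 were called, with 11 of 13 below MG by any amount and a median of -0.50. For E-Int29-Hi against MG, 1 was called higher (Rgs2) and 1 lower (Areg), with a median of 0.93. Among all genes, 4.64% were called higher and 4.35% lower for LCC against E-Int29-Hi. These shares were 1.33% and 2.63% for LCC against MG, and 2.6% and 3.97% for E-Int29-Hi against MG. The 4 most abundant were Dusp1, Sik1, Nr4a1 and Pde4b. The phosphatase gene Dusp1 stood at 109 FPKM in LCC, 238 in MG and 216 in E-Int29-Hi, and the phosphodiesterase gene Pde4b at 90.8, 129 and 223 FPKM. The nuclear receptor gene Nr4a1 stood at 100.1 FPKM in LCC, 127 in MG and 244 in E-Int29-Hi, and the kinase gene Sik1, at 89.9, 123 and 269 FPKM. Areg, amphiregulin, an epidermal growth factor receptor ligand, was 54.7, 179 and 5.86 FPKM in that order. Pde4d, a cyclic AMP phosphodiesterase, was 3.98, 9.91 and 23.3 FPKM, and Rgs2, a regulator of G protein signalling, 12.6, 7.78 and 43.1 FPKM.

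Markers of other cell types that make prostaglandins differed between the libraries too, and their part in the values above was not tested. Summed over 8 macrophage markers, the level was 521 FPKM in LCC, 207 in MG and 115 in E-Int29-Hi. Lyz2 (232 FPKM) and Ctss (162 FPKM) were the largest parts of the LCC sum. Called higher in LCC were 2 of 8 against E-Int29-Hi (Itgam and Ctss) and 2 of 8 against MG (Lyz2 and Ctss). Over all genes, 4.64% and 1.33% were called higher in these pairs. Against MG, 2 of the 8 lay lower in LCC. They were Cd14, at 51.1 FPKM in LCC and 130 in MG, and Mrc1, at 1.78 and 6.53 FPKM. Macrophages are also a known source of Alox5ap and of thromboxane synthase, and the latter gene, Tbxas1, stood at 2.57, 0.756 and 0.399 FPKM in LCC, MG and E-Int29-Hi. Of the dendritic cell markers, 5 of 6 tested were called higher in LCC than in E-Int29-Hi and 4 of 6 higher than in MG, with summed levels of 171, 14.7 and 7.68 FPKM in LCC, MG and E-Int29-Hi. The 7 neutrophil markers summed to 31.9, 11.7 and 1.08 FPKM, with S100a8 and S100a9 called higher in LCC than in E-Int29-Hi and S100a9 higher than in MG. S100a8 stood at 14.6, 9.15 and 0.336 FPKM and S100a9 at 15.9, 1.63 and 0.397 FPKM in LCC, MG and E-Int29-Hi, while Ly6g was listed at 0 in all 3 libraries and Ngp and Mpo at 0 in LCC. For Ptgs1, which platelets and mast cells carry, the platelet markers summed to 9.56, 11.0 and 11.5 FPKM in LCC, MG and E-Int29-Hi. The platelet marker Ppbp was called higher in LCC than in E-Int29-Hi, at 3.73, 0.699 and 0.105 FPKM in that order. The platelet list as a whole did not follow it. By any amount, 2 of 3 platelet markers tested lay lower in LCC than in E-Int29-Hi, and 4 of 5 lower than in MG, with 0 called lower. The 7 mast cell markers summed to 7.32, 30.2 and 7.15 FPKM. Cpa3 and Mcpt4 were called lower in LCC than in MG, beside 2.63% of all genes. Against E-Int29-Hi, 3 of 5 mast cell markers tested lay higher in LCC by any amount and 2 lower, with 0 called. The mast cell receptor genes Ms4a2 and Fcer1a were listed at 0 in LCC and in E-Int29-Hi.

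Endothelial cells are a known source of prostacyclin, and the 6 endothelial markers summed to 106 FPKM in LCC, 499 in MG and 92.6 in E-Int29-Hi. Their part in the Ptgis values was not tested. The 6 pericyte markers summed to 73.6, 116 and 23.6 FPKM in LCC, MG and E-Int29-Hi. The 5 mesothelial markers summed to 245 FPKM in LCC, 489 in MG and 16.4 in E-Int29-Hi, nearly all from Krt19, which is also in the luminal list and was called higher in LCC than in E-Int29-Hi and lower in E-Int29-Hi relative to MG. Wt1 stood at 0.635, 0.260 and 0.109 FPKM in LCC, MG and E-Int29-Hi, and Msln, Upk3b and Lrrn4 at no more than 0.218 FPKM in any library.

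For the 3 members called in any pair, the genes with the closest profile over the 3 libraries were found by Euclidean distance of centred log2(FPKM + 1) values among 6346 genes that reached 10 FPKM in some library. With 3 values per gene, close matches are easily found, and a distance describes these libraries only. Closest to Ptgs2 were Ddah1 (distance 0.10), Gpnmb (0.16) and Mmp10 (0.21). Mmp10, a matrix metalloproteinase gene, stood at 18.6 FPKM in LCC, 1.78 in MG and 0.0503 in E-Int29-Hi. Closest to Ptgs1 were Dido1 (0.0015), Npr1 (0.019) and Kitl (0.13), and Kitl, the ligand of the receptor Kit, stood at 24.3, 122 and 96.6 FPKM. Closest to Ptgis were the tight junction gene Cldn4 (0.027), the globin gene Hba-a2 (0.10), which has near-identical copies, and Cd248 (0.11), a marker of stromal cells at 40.7, 27.6 and 1.95 FPKM in LCC, MG and E-Int29-Hi.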

How the data were processed

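Each deposited table, 1 per library, lists an FPKM value with a status for 22378 gene models, per the file headers. The submitters' processing notes give TopHat 1.4.1, Cufflinks 1.3.0 and build mm9, with no role stated; the annotation release was not stated. The 22188 models with status OK throughout were used, and of models sharing a name the one with the highest summed FPKM was kept. Relative depth was sought in low values. The commonest ratio between E-Int29-Hi and MG for genes below 0.1 FPKM was 1.048 (116 of 1184 genes); ratios with LCC rested on few genes (7 of 391 at 1.115 over E-Int29-Hi, 8 of 331 at 1.169 over MG).

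The members and lists were chosen with earlier results of these data known. All 10 members are named, and of the 4 related lists, genes at least 4-fold apart and the 4 most abundant. Hpgds, Ptgir, Tbxas1, Ptges2 and Alox5 were named after their values were seen. The steps were tested on simulated data. Alternatives were other pseudocounts, filters, scalings and choices of gene model. Python 3.11.15, numpy 2.4.6, pandas 2.3.3 and matplotlib 3.10.9 were used.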

Additional observations from a re-analysis of the deposited data

How the results depend on the processing

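The 30 member differences were recomputed under 8 alternatives, and 226 of 240 values kept their side of the 4-fold line, 222 of them with their direction, 3 lost a call and 11 gained one. Of the called values 0 changed sign, and 4 uncalled ones did, all as TPM: for LCC against MG, Ptges (0.23 to -0.05) and Ptger4 (0.24 to -0.01), and for E-Int29-Hi against MG, Ptger2 (0.03 to -0.07) and Ptgds (0.01 to -0.04). Adding 5 FPKM in place of 1 left 1 member in place of 2 higher in LCC than in E-Int29-Hi, 0 in place of 1 lower in LCC than in MG, and 0 in place of 1 for E-Int29-Hi below MG. Adding 0.1 FPKM gave 1 in place of 0 lower in LCC than in E-Int29-Hi, as did TPM and median ratio scaling (divisors of 1.08 for LCC, 1.02 for MG and 0.892 for E-Int29-Hi). Adding 0.1 FPKM, and likewise TPM, put 4 in place of 1 in E-Int29-Hi below MG. Ptgs2 stayed called in both pairs with LCC under all 8 alternatives. When 5 FPKM was added, the ratio of Ptgs2 to Ptgs1 was 100.1 in LCC, 6.07 in MG and 3.72 in E-Int29-Hi, and that of Ptges to Hpgd 5.16, 4.33 and 11.1. With 5 FPKM added, the calls of Ltb4r2, Ggt5, Aloxe3, Pde4d, Rgs2, Il1a, Pla2g4a and, for E-Int29-Hi against MG, Il1b, Il6 and Tlr4 were lost, while Alox5ap stayed called in both pairs with LCC under all 8. Of the cell type markers, S100a8, S100a9, Itgam, Ppbp and the dendritic cell marker Itgax then lost their calls in pairs with LCC. So did Cpa3, Mcpt4, Elf5, Esr1, Myh11 and Oxtr for LCC against MG. For LCC against MG the median over members turned from 0.08 to -0.35 as TPM and -0.13 with no low-value filter. It moved for LCC against E-Int29-Hi with no low-value filter (0.42 over all 10) and for E-Int29-Hi against MG with 5 FPKM added (-0.62).

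Over all genes, LCC against E-Int29-Hi (564 higher, 528 lower) gave 1128 and 947 with 0.1 FPKM added, 209 and 235 with 5 FPKM, 794 and 871 as TPM, and 447 and 685 with median ratio scaling. LCC against MG (166 and 327) gave 334 and 815, 71 and 95, 172 and 848, and 138 and 335. E-Int29-Hi against MG (323 and 494) gave 521 and 1089, 138 and 159, 373 and 1020, and 392 and 415. No paired analysis was possible because each group has 1 library, and no library could be left out.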
